A study of Homo sapiens with 4 samples.

Results

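The loops described here are those at the genes of the cytosolic ribosomal proteins in MDA-MB-231 cells, a triple-negative breast cancer (TNBC) line. A gene was a member when it is protein coding, its symbol starts with RPL or RPS and it encodes a protein of the cytosolic ribosome or a paralog of one, which gave 87 of 20162 protein-coding genes in GENCODE lifted to GRCh37: 46 of the large subunit, 31 of the small subunit and 10 paralogs. A loop was counted for a gene when an anchor lay within 10 kb of the gene's 5′ end, the outermost start of its annotated record. Such loops numbered 159 of 20768 in vehicle replicate 1, 190 of 24219 in vehicle replicate 2, 129 of 17222 in THZ1 replicate 1 and 120 of 15066 in THZ1 replicate 2. The genotype is labelled WT in every sample, and cells were treated for 48 h with DMSO (vehicle) or with 75 nM THZ1, an inhibitor of the transcription and cell cycle kinase CDK7. Arima-HiC, which ligates DNA ends that lie close together in the crosslinked nucleus and sequences the junctions, was done on 2 libraries per treatment, and the series design calls them technical replicates. The p-values below therefore measure only the spread between these libraries, which may be technical.

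Ribosomal proteins assemble with ribosomal RNA in the nucleolus into a large and a small subunit, which join on mRNA to make protein. Their genes are scattered over nearly all chromosomes, are among the most strongly transcribed housekeeping genes, and are held at matched output because the proteins are needed in equal numbers. Many of their mRNAs start with a C followed by a run of pyrimidines, the terminal oligopyrimidine (TOP) tract, through which mTOR signaling controls their translation. A chromatin loop in a Hi-C map is a pair of distant segments that touch more often than their surroundings do, and many loops form where cohesin stops at CTCF bound on either side.

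The start sites show this shared feature of the members. At the start of the canonical transcript in GRCh37, 60 of 87 ribosomal protein genes (69.0%) had a C followed by at least 4 further pyrimidines, against 4.27% of the other 20075 protein-coding genes. The start sites below belong to genes on which the results turn, with 15 bases before and 15 bases from the annotated first base, 5′ to 3′ on the gene's strand. Capitals mark the run of C and T that begins at the first base.
RPL41, chr12:56510402-56510431, plus strand: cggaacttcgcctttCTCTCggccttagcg
RPS14, chr5:149829288-149829317, minus strand: ccgccccctcccactCTCTCTTTCCggtgt
RPL27A, chr11:8704324-8704353, plus strand: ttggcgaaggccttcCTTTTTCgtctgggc
RPL38, chr17:72199802-72199831, plus strand: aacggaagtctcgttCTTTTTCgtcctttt
RPS24, chr10:79793606-79793635, plus strand: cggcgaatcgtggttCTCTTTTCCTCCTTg
RPL29, chr3:52029897-52029926, minus strand: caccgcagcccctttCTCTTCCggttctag
RPS16, chr19:39926575-39926604, minus strand: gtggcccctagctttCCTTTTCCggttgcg
RPS26, chr12:56435687-56435716, plus strand: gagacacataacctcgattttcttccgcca
The last of these, RPS26, is 1 of the members without the tract at its annotated start.

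The lists hold no read totals and no expression, so neither sequencing depth nor the identity of the cells was checked here. The observed count of a loop is the number of contacts at its peak pixel, which is as wide as its anchors. Over the ribosomal protein gene loops the median observed count was 23 and 27.5 for vehicle replicates 1 and 2 and 33 and 32 for THZ1 replicates 1 and 2, and the observed counts summed to 4668, 5885, 5114 and 4757. Anchors were 5, 10 or 25 kb wide. Those of 25 kb were found in 24 of 162 and 29 of 195 pairs of a gene and a loop in vehicle replicates 1 and 2. In THZ1 replicates 1 and 2 they were found in 36 of 132 and 30 of 123. Both vehicle lists were longer in total than either THZ1 list, so shares and per-gene values are given beside counts.

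Fewer loops were called at ribosomal protein genes in THZ1-treated cells than in vehicle-treated cells. Vehicle libraries held 174.5 ± 21.9 loops on average (SD, n = 2) and THZ1 libraries 124.5 ± 6.36 (SD, n = 2), which is 1.40-fold fewer. The log2 ratio was -0.49 with a spread between replicates of 0.20, and the groups did not overlap. An exact two-sided permutation test of 2 libraries against 2 gave p = 0.333, the smallest value this design allows, so the size of a difference against its spread carries each comparison of libraries. The number of genes with at least 1 loop was 58, 68, 58 and 58 of 87, and here the groups overlapped. The fewer loops were therefore spread over a similar number of genes.

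Among loops at any protein-coding start site, the share at ribosomal protein genes was 1.26% and 1.3% with vehicle and 1.31% and 1.38% with THZ1. This is a log2 ratio of 0.07 with a spread of 0.06, a change about as large as the spread between replicates, and its sign turned to -0.026 without loops with 25 kb anchors and to -0.012 with stricter FDR. Per gene, the members had 1.86, 2.24, 1.52 and 1.41 loops in vehicle replicates 1 and 2 and THZ1 replicates 1 and 2. All other protein-coding genes had 1.17, 1.35, 0.900 and 0.790. The members had more loops per gene than the other genes in 4 of 4 libraries, by a mean log2 ratio of 0.75 ± 0.07 (SD, n = 4 libraries), with an exact sign-flip p of 0.125, the smallest that 4 libraries allow. Another protein-coding start site lay within 10 kb of 49.4% of the members and of 32.9% of the other genes, and its part in the difference was not tested. The 78 genes of the mitochondrial ribosome, nuclear genes for the organelle's own translation machinery, had 56.4% with such a neighbour, and their loops per gene were within a mean log2 ratio of 0.07 ± 0.09 of the members' (SD, n = 4 libraries).

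**Figure D1:**
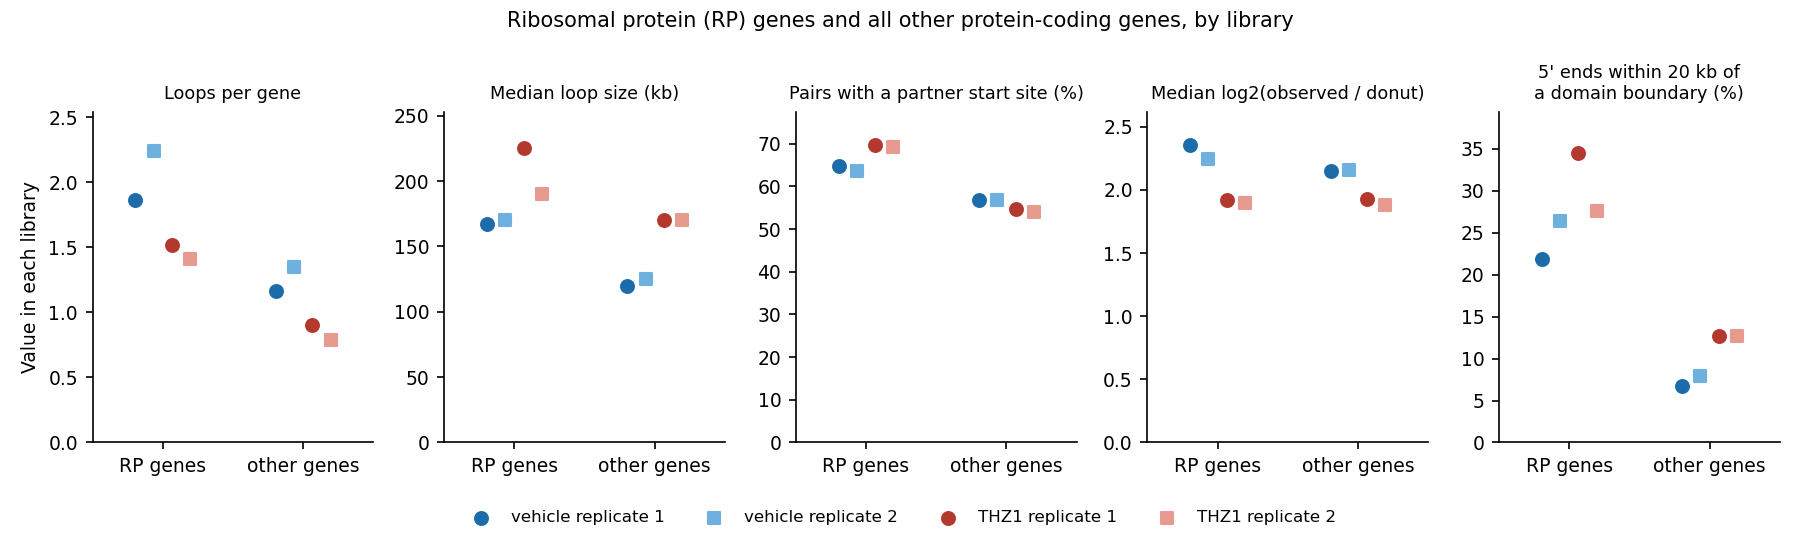
Values in each of the 4 libraries (blue, vehicle; red, THZ1; circles, replicate 1; squares, replicate 2) for the 87 ribosomal protein (RP) genes and for all other protein-coding genes. The panels show loops per gene, median loop size in kb, percentage of gene and loop pairs with a partner start site, median log2 of observed over donut expectation, and percentage of 5′ ends within 20 kb of a domain boundary. RP genes lie above the other genes in all 4 libraries in every panel but that of observed over donut, where THZ1 replicate 1 lies just below.

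Of the 87 genes, 75 had a loop in at least 1 library and 44 had one in all 4. Large subunit genes had a loop in any library in 42 of 46 cases, small subunit genes in 26 of 31 and paralogs in 7 of 10. The genes without a loop included RPL10, RPL22, RPL34, RPL4, RPS19, RPS23, RPS28 and RPS7, and the paralogs RPL10L, RPS4Y1 and RPS4Y2. The annotated 5′ end of RPL10, RPL22 and RPL4 lay 8.40, 9.79 and 19.7 kb from the start of their canonical transcript, and the window was set on the former.

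The genes with the most loops were RPS14, a small subunit protein whose loss on one allele underlies the anemia of the 5q- syndrome, with 6, 7, 7 and 6 loops, and RPL41, the smallest ribosomal protein, with 8, 6, 6 and 5. RPL27A had 6, 5, 7 and 5, and RPL38, known for its role in translation of Hox mRNAs in the mouse, had 4, 7, 7 and 4. These 4 large and small subunit genes kept high numbers with THZ1, and the libraries of both groups overlapped or touched. RPL35 also did not separate the groups, with 4 loops in each library.

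At 4 other genes of the leading 9, both THZ1 libraries had fewer loops than either vehicle library. RPS24, a Diamond-Blackfan anemia gene that starts next to POLR3A, had 5, 9, 4 and 3 loops. RPL29 had 5, 7, 4 and 4, RPL30 had 7, 6, 4 and 2, and RPL9 had 5, 7, 4 and 2. Over all members with any loop, 17 of 75 genes had fewer loops in both THZ1 libraries than in either vehicle library, which is 22.7% against 24.4% of all 13567 protein-coding genes with a loop. More loops in both THZ1 libraries were found at 0 of 75 members, against 2.39% of all. By subunit the 17 were 12 large subunit genes, 4 small subunit genes and 1 paralog. The members' share was thus near that of all genes.

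**Figure D2:**
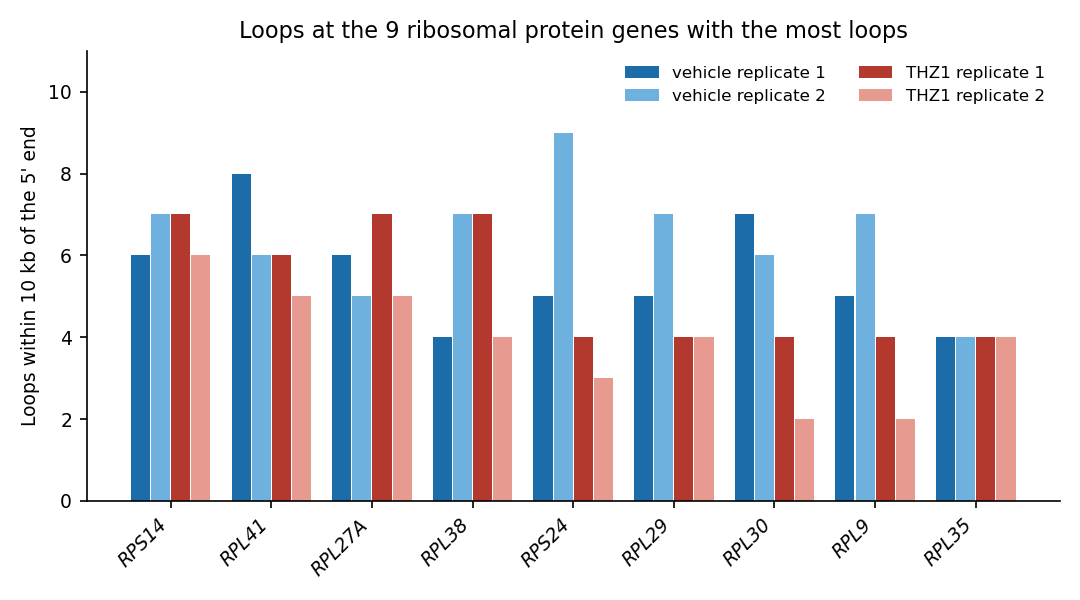
Number of loops within 10 kb of the 5′ end (vertical axis) at the 9 ribosomal protein genes with the most loops, with 1 bar per library (blue, vehicle; red, THZ1). RPS24, RPL29, RPL30 and RPL9 have lower bars in both THZ1 libraries than in either vehicle library, and RPS14 and RPL35 stay near the same height.

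Within the window of 10 kb, 3 of 75 genes had a loop in each vehicle replicate and none in either THZ1 list (4.00%, against 8.9% of all genes with a loop). These were RPL13, RPL32 and the paralog RPSA2. RPL13 had 2 loops in vehicle replicate 1 and 1 in vehicle replicate 2, and the loop of about 240 kb that both lists held rested on 14 and 12 contacts. RPSA2 had a loop of 345 kb with identical anchors in both vehicle lists, with 16 and 15 contacts. The loop of 125 kb at RPL32, with 23 contacts in vehicle replicate 1, had a match outside the window in vehicle replicate 2 and in THZ1 replicate 2, with 17 contacts in each, so at RPL32 it was the assignment to the gene, not the loop, that was missing with THZ1. The reverse, a gene with a loop in both THZ1 libraries only, was seen at 0 of 75 members, against 1.11% of all genes.

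Loops at ribosomal protein genes were longer with THZ1. The median size, measured from the start of 1 anchor to that of the other, was 170 kb in each vehicle library and 225 and 190 kb in THZ1 replicates 1 and 2, a log2 ratio of 0.29 with a spread of 0.17 and no overlap (exact permutation p = 0.333). Without loops with 25 kb anchors, which were a larger part of the THZ1 lists, the medians were 132.5 and 125 kb with vehicle and 160 and 140 kb with THZ1. Small loops, defined here as spanning at most 90 kb, made up 36.5% of the loops in vehicle replicate 1 (95% Wilson interval 29.4 to 44.2%) and 37.4% in vehicle replicate 2 (30.8 to 44.4%). They made up 27.9% in THZ1 replicate 1 (20.9 to 36.2%) and 28.3% in THZ1 replicate 2 (21.0 to 37%). Their mean share fell by 8.80 percentage points, with a spread between replicates of 0.70, while the intervals, which cover counting error only, overlapped between the groups.

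The relative fall in number was largest for the shortest loops. Those of at most 50 kb fell from 29 and 39 in the vehicle lists to 13 and 16 in the THZ1 lists, a log2 ratio of -1.23, against -1.08 for the loops of other protein-coding genes. Between 500 and 1000 kb there were 5 and 16 loops in the vehicle lists against 16 and 14 in the THZ1 lists, so these groups overlapped. In every library the members' loops were longer than those of the other protein-coding genes, whose median was 120 and 125 kb with vehicle and 170 kb in each THZ1 list. On average the log2 ratio of members to others was 0.37 ± 0.14 (SD, n = 4 libraries; exact sign-flip p = 0.125). The ratio changed by -0.18 with THZ1, about the size of its spread of 0.17. At the other genes the share of small loops fell by 9.05 percentage points. The 39 genes of ribosome biogenesis had median loop sizes of 170 and 155 kb with vehicle and 255 and 227.5 kb with THZ1. Against the genes of the mitochondrial ribosome the members' mean log2 ratio of size was 0.12 ± 0.33 (SD, n = 4 libraries), and -0.35 in THZ1 replicate 2. Longer loops were thus not particular to the ribosomal protein genes.

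**Figure D3:**
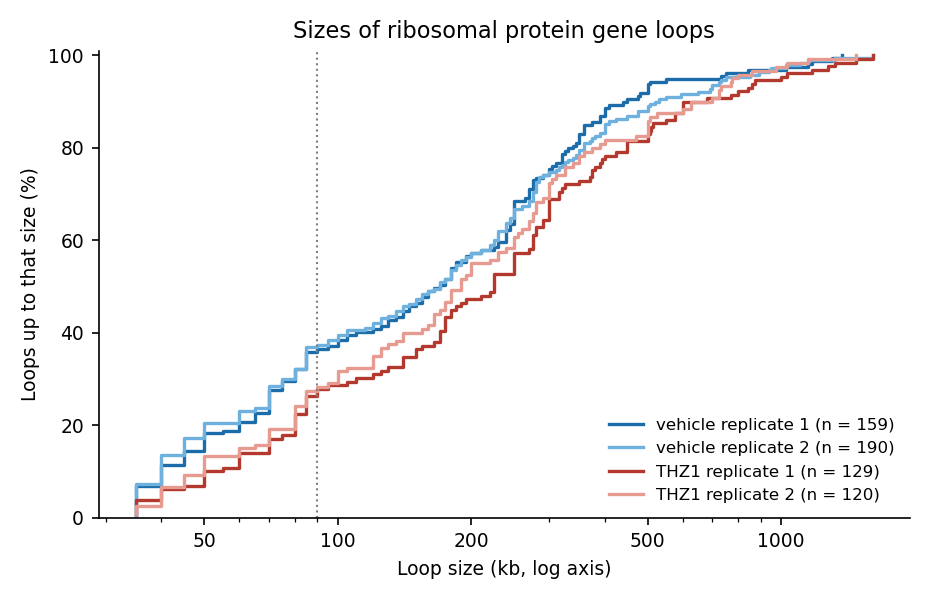
Cumulative percentage of ribosomal protein gene loops (vertical axis) up to a given size in kb (horizontal log axis), with 1 line per library (blue, vehicle; red, THZ1) and a dotted line at 90 kb. Both THZ1 lines run below both vehicle lines at 90 kb, at 27.9 and 28.3% against 36.5 and 37.4%.

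Most loops of ribosomal protein genes ended within 10 kb of another gene's start, and between 48.4 and 51.1% in each library had a partner anchor that overlapped one. The other anchor lay within 10 kb of a protein-coding 5′ end in 102 of 159 loops of vehicle replicate 1 (64.2%, 95% Wilson interval 56.4 to 71.2%) and 119 of 190 of vehicle replicate 2 (62.6%, 55.6 to 69.2%). It did so in 89 of 129 loops of THZ1 replicate 1 (69.0%, 60.6 to 76.3%) and 82 of 120 of THZ1 replicate 2 (68.3%, 59.6 to 76.0%). The rise of 5.27 percentage points exceeded the spread of 1.17 without overlap (exact permutation p = 0.333). It depended on the window: it was 1.54 with 5 kb and -0.36 with 20 kb. With 20 kb a gene's own 5′ end can lie near both anchors of a short loop, and it was then counted as a partner. That value therefore does not count the starts of other genes only. Partner anchors without a start site lay in a gene body in 33, 41, 23 and 27 loops and outside genes in 24, 30, 17 and 11.

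Set beside all other protein-coding genes, the members had the higher share of partners at a start site in 4 of 4 libraries. Over pairs of a gene and a loop it was 64.8, 63.6, 69.7 and 69.1% for the members and 56.9, 56.9, 54.8 and 54.1% for the others. The gap was 7.94 and 6.73 percentage points with vehicle and 14.9 and 15.0 with THZ1, a widening of 7.63 with a spread of 0.86 (exact permutation p = 0.333). The others' share fell by 2.43 points and that of the members was 5.20 points higher. The gap was wider in both THZ1 libraries than in either vehicle library under each of the other definitions, by 3.44 points with a window of 5 kb, 1.91 with 20 kb, 5.92 with the start of the canonical transcript and 3.45 when the partner anchor had to overlap the 5′ end. With overlap the members' own share changed by -0.03 points, so the wider gap there came from the others, whose share fell by 3.49 points. With 20 kb the members' share changed by -0.51 points and that of the others fell by 2.42. Both shares with 20 kb include short loops where a gene's own 5′ end was counted as the partner, so they do not show which side widened the gap. With vehicle the genes of the mitochondrial ribosome had a share like that of the members, 64.0 and 64.7%. Their own share changed by 0.18 points with a spread of 1.83. The members' gap to them was 0.81 and -1.08 points with vehicle and 3.93 and 5.84 with THZ1. This widening of 5.02 with a spread of 1.9 was computed with the window of 10 kb only. The genes of ribosome biogenesis had 75.4, 75.0, 72.2 and 64.0%, above the members in all libraries but THZ1 replicate 2. In all, 316 genes were partners of a ribosomal protein gene.

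A single loop joined 2 ribosomal protein genes. It linked RPS26, a protein at the mRNA exit channel of the small subunit and a Diamond-Blackfan anemia gene, to RPL41 on chromosome 12, about 75 kb away (anchors chr12:56435001-56440000 and chr12:56510001-56515000 in vehicle replicate 1). It was called in all 4 libraries, with 16, 29, 24 and 22 observed contacts against a donut expectation, the contacts expected from the ring of pixels around the peak, of 4.03, 5.75, 6.35 and 5.25. The log2 ratios of observed to donut were 1.99, 2.34, 1.92 and 2.07, and the groups overlapped. Between both genes lies ERBB3, the gene of a receptor of the EGFR family. The loop of 35 kb from RPS26 to ERBB3 had 23 contacts in each vehicle library and the loop of 40 kb from ERBB3 to RPL41 had 23 and 36, and neither was called with THZ1.

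RPL41 also had loops, called in all 4 libraries, to MYL6 and MYL6B, which encode myosin light chains, to SMARCC2, a subunit of the BAF remodeling complex, and to NABP2, RNF41 and SLC39A5. All 25 calls of loops at RPL41 had a partner start site, and 47 other protein-coding start sites lay within 500 kb of its 5′ end. At RPS24, with 3 start sites within 500 kb, 19% of 21 calls had one, and the median loop there spanned 480 kb. RPL31, with 7, had 8.33% of 12. Genes with few calls also went the other way. RPL19, with 25 start sites within 500 kb, had 20.0% of its 5 calls at a start, and RPL22L1, with 5, had all of its 4. A loop of 35 kb at RPL19 made up 4 of the calls there, and a loop of 40 kb at RPL22L1 made up 3. Whether the share follows the number of neighbouring starts was not tested.

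**Figure D4:**
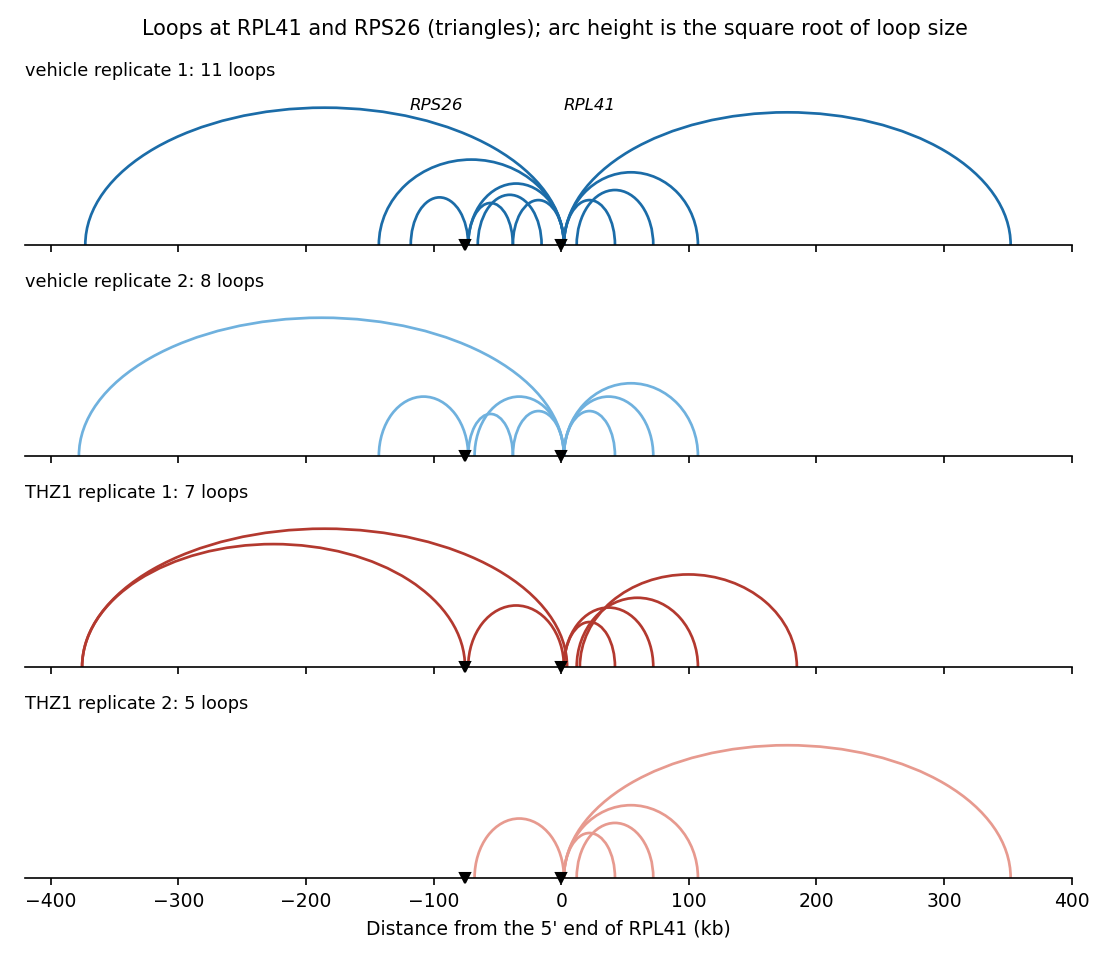
Loops at RPL41 and RPS26 in each library, drawn as arcs between anchor midpoints (horizontal axis, distance from the 5′ end of RPL41 in kb; arc height, square root of loop size; triangles, both 5′ ends). Vehicle replicates 1 and 2 hold 11 and 8 loops and THZ1 replicates 1 and 2 hold 7 and 5, and the short pair that meets at ERBB3 between both genes is present in the vehicle panels only.

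Loops were matched between libraries when both anchor midpoints lay within 20 kb, which gave 289 distinct loops at ribosomal protein genes among 35076. Of these, 66 (22.8%) were called in all 4 libraries, against 23.9% of all loops. Vehicle lists alone, both of them, held 33 (11.4%, against 10.0% of all), and both THZ1 lists alone held 9 (3.11%, against 2.41%). Besides the pair at ERBB3, the 33 included loops of 40 and 175 kb at RPS14, 1 of 240 kb from RPL29 to the start sites of TWF2, TLR9 and PPM1M, and 4 loops at RPL30. Anchors of 25 kb that lie side by side have midpoints more than 20 kb apart and cannot match. THZ1 replicate 2 held such a neighbour of the 175 kb loop, a loop of 200 kb at RPS14 with 88 contacts. The loop of 175 kb is thus not shown to be missing with THZ1. The 9 included a loop of 600 kb at RPS14, with 22 and 17 contacts, and 1 of 1475 kb at RPL38, with 38 and 30. A loop that a list does not hold was not called there, and its contacts in that library are not known.

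The enrichment of loops over their surroundings was lower with THZ1. The median log2 ratio of observed to donut over all loops at ribosomal protein genes was 2.36 and 2.24 with vehicle and 1.95 and 1.89 with THZ1, a difference of -0.38 with a spread of 0.09 and no overlap (exact permutation p = 0.333). For the other protein-coding genes the medians over pairs of a gene and a loop were 2.15, 2.16, 1.93 and 1.88. The members' excess over the others was 0.21 and 0.09 in the vehicle lists and -0.01 and 0.01 in the THZ1 lists, a change of -0.15 with a spread of 0.09. These medians are over different loops in each library and over anchors of different width.

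Among loops followed through all 4 libraries, the counts for the members were close to those for all loops. The 66 matched loops at ribosomal protein genes had a median change of -0.41 on the log2 scale, from -1.25 to 1.09. Of the 66, 54 were below 0, beside 6687 of all 8383 loops and 4124 of 5051 other start-site loops. Both THZ1 libraries were below both vehicle libraries in 33 of 66 loops, against 50.3% of all 8383, and above both in 5 (7.58%, against 5.55%). The median change over 5051 other start-site loops was -0.38. In 37 of the 66 loops all 4 lists gave the same anchor width, and there the median change was -0.39. RPL35, a large subunit protein near the exit tunnel, shows both directions. Its loop of 85 kb to NR6A1 and OLFML2A had log2 ratios of 3.05, 3.22, 3.82 and 3.65, higher with THZ1, and its loop of 70 kb to GOLGA1 had 2.03, 2.36, 1.84 and 1.84, lower with THZ1.

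Loops with identical anchors in all 4 lists allow a test of the counts themselves. There were 14 at ribosomal protein genes among 2619 tested. A loop named at or from a gene has an anchor within 10 kb of its 5′ end, and only 4 of the 14 had one within 5 kb. Most of them are thus loops near the gene and not at its start. At these 14 loops the observed contacts summed to 519, 593, 529 and 493 in vehicle replicates 1 and 2 and THZ1 replicates 1 and 2, and the donut expectations summed to 70.4, 84.1, 102 and 100. The lower ratio thus went with a donut sum that was 1.31-fold higher and an observed sum that was 0.919-fold that of vehicle. Over all 2624 loops with identical anchors these ratios were 1.28 and 0.962. The donut expectation was higher in both THZ1 libraries than in either vehicle library at 12 of the 14 loops, the observed count was lower at 3, and their ratio was lower at 11. The same counts were not made over all 2624 loops, so they do not set the members apart.

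With the donut expectation as offset, edgeR's quasi-likelihood test with Benjamini-Hochberg adjustment over 2619 loops called 5 of the 14 loops lower with THZ1 and 0 higher, against 27.5% of all loops called lower. The largest change was at the loop of 35 kb from the RPS16 anchor to TIMM50, a subunit of the mitochondrial import machinery, on chromosome 19. It had 41, 50, 47 and 32 contacts and log2 ratios of 2.94, 2.89, 2.16 and 1.39, and both THZ1 libraries lay below both vehicle libraries. Its log2 change was -1.11 (SE 0.23, edgeR adjusted p = 0.00392). SUPT5H, which encodes a transcription elongation factor, also starts within 10 kb of that anchor. The anchor spans chr19:39935001-39940000, and the 5′ end of RPS16 lies at 39926589.

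The loop of 195 kb at RPL31, whose other anchor had no start site, had log2 ratios of 3.70, 3.0, 2.52 and 2.51, and changed by -0.82 (SE 0.26, edgeR adjusted p = 0.0242). The loop of 155 kb from RPL29 to POC1A, a centriole protein gene, had 3.22, 2.56, 2.01 and 2.15, and changed by -0.79 (SE 0.24, edgeR adjusted p = 0.0228). Observed contacts at both were lower in each THZ1 library, with 26 and 26 against 35 and 29 at RPL31 and with 29 and 31 against 42 and 35 at RPL29. At RPS10, a protein that is ubiquitinated when ribosomes collide, the loop of 165 kb to SMIM29 had 49 and 51 contacts against 34 and 32 and changed by -0.75 (SE 0.20, edgeR adjusted p = 0.0120). At RPL10A, a protein of the L1 stalk, the loop of 170 kb to DEF6 had 90, 114, 92 and 78 contacts and changed by -0.59 (SE 0.16, edgeR adjusted p = 0.0144).

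The calls changed with the offset and the tool. Without the expectation, on TMM-scaled observed counts, edgeR called 0 of the 14 loops, the median over all loops moved from -0.41 to -0.01, and 109 loops were lower and 67 higher in place of 720 and 1. Relative to the median of all loops, the median of the 14 was -0.04 with the donut offset and 0.01 with TMM. DESeq2 called 0 of the 14 (3 at an unadjusted p under 0.05), with a median log2 change of -0.46, the same as edgeR's. Leaving out vehicle replicate 1, vehicle replicate 2, THZ1 replicate 1 or THZ1 replicate 2 left edgeR 0 of the 14 in each case (4 or 5 at an unadjusted p under 0.05), while the median change of the 14 was -0.48, -0.51, -0.48 and -0.44. These fits have a single library in 1 group, assumed to vary like the other group, and called 0 of all 2619 loops in 3 of the 4 cases, so they do not show that a call rests on 1 library. With loops matched within 20 kb, where edgeR called 0.0119% of 8375 loops in either direction, it called 0 of 66 members (14 at an unadjusted p under 0.05).

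**Figure D5:**
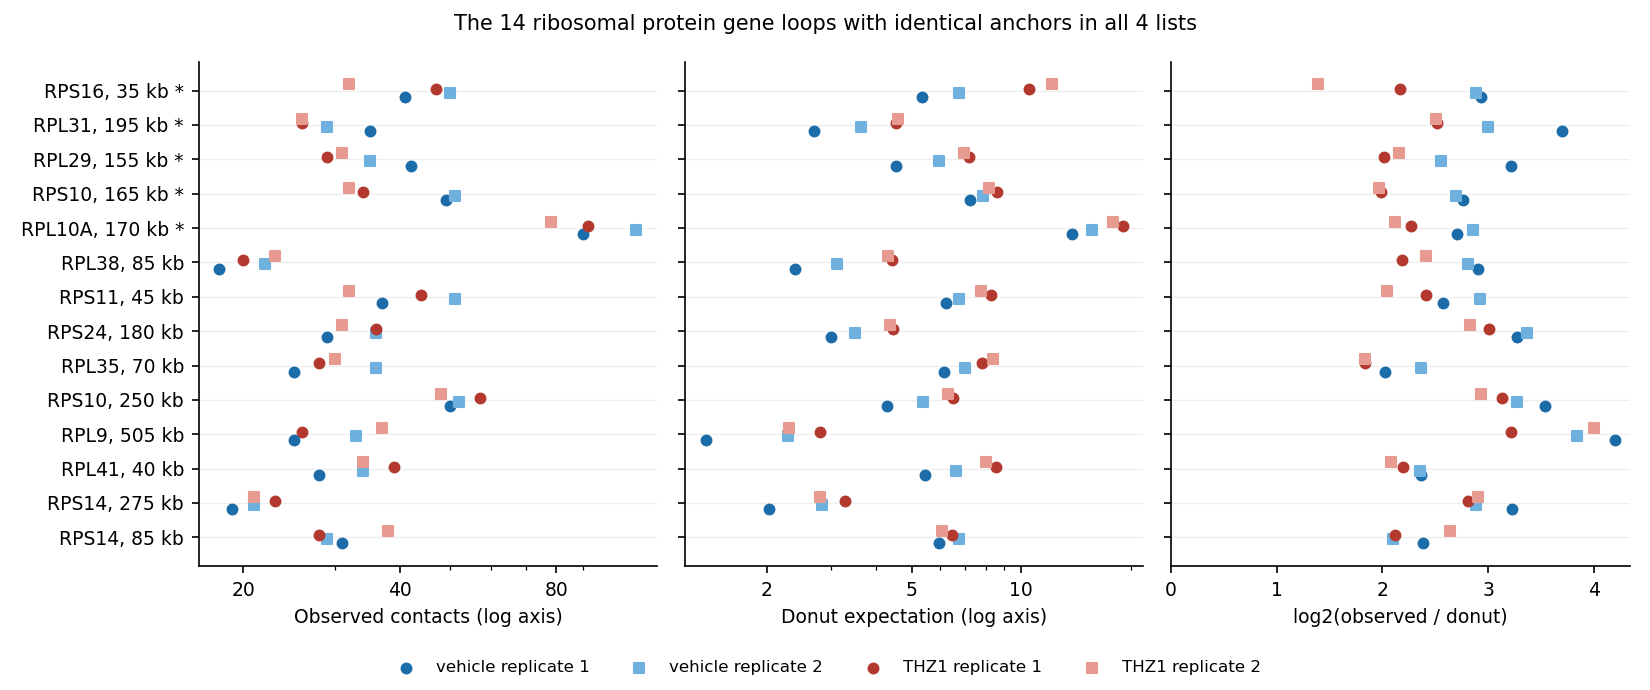
Observed contacts, donut expectation (both on log axes) and their log2 ratio in each library (blue, vehicle; red, THZ1) at the 14 ribosomal protein gene loops with identical anchors in all 4 lists, named by gene and loop size and sorted by change. Stars mark the 5 loops with an edgeR adjusted p under 0.05, and the red points lie to the right of the blue points for the donut expectation at 12 of 14 loops. That count was not made over all loops.

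The highest mean ratio among these 14 was at the loop of 505 kb from RPL9, which starts beside LIAS, to PDS5A, a cohesin regulator, with log2 ratios of 4.20, 3.85, 3.21 and 4.00 and overlapping groups. The loop of 250 kb from RPS10 to GRM4 followed with 3.54, 3.28, 3.13 and 2.93, and that of 180 kb at RPS24 with 3.27, 3.37, 3.01 and 2.83. The lowest were RPL35 to GOLGA1, given above, RPL41 to MYL6 with 2.36, 2.36, 2.20 and 2.08, and the loop of 85 kb at RPS14 with 2.38, 2.10, 2.12 and 2.64. None of these changes passed the edgeR test, with adjusted p values from 0.154 to 0.650.

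The anchors were searched on both strands for a core of the CTCF motif, spelled CCA, any 2 bases, AGG, any base and GGC. Among matched loops with anchors of 5 kb, it was found in 19 of 98 anchors of ribosomal protein gene loops (19.4%) and in 15.0% of 12272 anchors of other loops. Both anchors held it in the convergent orientation, pointing toward each other, in 2 of 49 member loops (4.08%) and in 1.97% of 6136 others. The loop of 275 kb between an anchor near RPS14 and the start sites of CDX1 and PDGFRB is 1 of those. Its log2 ratios were 3.23, 2.89, 2.81 and 2.90. Anchors are named here for a gene with its 5′ end within 10 kb. Those named RPS14 and RPS10 lay past these genes, whose 3′ ends are at chr5:149822198 and chr6:34385231. The matches of the loop near RPS14 follow, each in the 5′ to 3′ direction of its own strand with the motif in capitals. After them come the match at the anchor that both RPS10 loops share and that at the far anchor of the RPS16 loop.
First anchor at PDGFRB, chr5:149541345-149541374, plus strand: ccaggagtgCCAGCAGGTGGCggccccagc
Second anchor at RPS14, chr5:149815803-149815832, minus strand: tataggtggCCACCAGGTGGCagcattgtt
Second anchor at RPS10, chr6:34383208-34383237, minus strand: taatgtagaCCACGAGGTGGCagctgatga
Second anchor at TIMM50, chr19:39973375-39973404, minus strand: ggagtcaagCCAGGAGGGGGCtgggagcca
A match is a run of letters and not evidence of binding, and the core spelled here is stricter than the range of sites that CTCF uses.

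Ribosomal protein genes also sat often at the edges of contact domains, the blocks of self-contact that Arrowhead drew on a grid of 10 kb. Their 5′ ends lay within 20 kb of a domain boundary for 19, 23, 30 and 24 of 87 genes in vehicle replicates 1 and 2 and THZ1 replicates 1 and 2 (21.8, 26.4, 34.5 and 27.6%). For the other protein-coding genes the shares were 6.76, 7.89, 12.7 and 12.7%. The members' share was 3.23 and 3.35 times that of the others with vehicle and 2.73 and 2.17 times with THZ1, a fall in the ratio of 0.84 with a spread of 0.40 and no overlap (exact permutation p = 0.333). In percentage points the members' share rose by 6.90 with a spread of 5.86, and that of the others by 5.34 with a spread of 0.79. The fall was thus seen on the ratio scale only. Conversely, 3, 4, 7 and 8 of the 87 lay inside a domain and away from its boundary (3.45, 4.6, 8.05 and 9.20%), against 15.6, 18.1, 28.8 and 28.3% of the others. The lists held 1198 and 1398 domains for vehicle against 2477 and 2345 for THZ1, and both shares were higher in each THZ1 list than in either vehicle list, for members and others alike.

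The 5′ end itself lay inside the anchor in 43.2, 43.6, 48.5 and 45.5% of gene and loop pairs. The loop ran downstream of the start, in the direction of transcription, in 51.9, 50.3, 52.3 and 57.7%, so loops left these genes about equally to either side.

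The rest of the translation machinery was counted over the genes with a loop in any library. Among 69 such genes of the mitochondrial ribosome, 19 had fewer loops in both THZ1 libraries than in either vehicle library and 1 had more, beside 24.4% and 2.39% of all genes with a loop. The numbers were 8 and 0 of 33 genes of ribosome biogenesis and 5 and 2 of 37 translation factor genes. RRS1, an assembly factor of the large subunit, had 4, 8, 7 and 8 loops, MRPS10 of the mitochondrial small subunit had 8, 10, 8 and 6, and EIF4E, the cap-binding protein, had 6, 6, 5 and 3.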

How the data were processed

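Hi-C loop and domain lists of 4 libraries of MDA-MB-231 cells (2 vehicle, 2 THZ1) were used. Reads were processed with Juicer 1.6 against hg19, per the submitters' processing notes, and the lists name juicer_tools 1.19.02. In the authors' HiCCUPS loop lists, the deposited observed values are raw counts of contacts at the peak pixel, the deposited expectations are signal values in contacts from 4 neighborhoods (donut, bottom-left, horizontal and vertical), and the deposited FDR values are q-values (of the p-value type). In the authors' Arrowhead domain lists the deposited score is a corner score and was not analysed. A pair of deposited tables holds the authors' own comparison (loops unique to vehicle or THZ1) and was not used.

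Python 3.11.15 with pandas 2.3.3 and numpy 2.4.6 read the lists, permutation tests were exact over the 6 ways to assign the libraries, and figures were drawn with matplotlib 3.10.9. Genes, 5′ ends and sequences came from GENCODE 44 lifted to GRCh37 and the GRCh37 genome. The spread of a difference is the root of the summed variances of both groups. Strength was tested with edgeR 4.0.16 in R 4.3.3 on observed counts, offset by the log donut expectation (5 of 2624 loops with an expectation of 0 were left out), with DESeq2 1.42.0 as an alternative. In counts simulated on 2619 loops with 200 changed, edgeR recovered 70% of the 2-fold and 30% of the 1.5-fold changes, with 3 false calls (2.91%). The simulation used a common dispersion for all loops and balanced up and down changes. It held no shift of all loops such as these data show, so its false share does not carry over to the calls here. Replicate numbers did not pair the libraries (r = 0.02 between the deviations of same-numbered libraries over 2619 loops).

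Members, lists, windows and tests were chosen with earlier results of these data known. Named genes are the 10 with the most loops (1 of them and a few other genes are not reported here), those with loops in both libraries of 1 treatment only, those at loops past the strength threshold, those joined by a loop, and the 3 highest and 3 lowest ratios among loops with identical anchors. Other partners and the loops at RPL31, RPL35 and RPL38 given for their surroundings or direction were chosen after their values were seen. RPSA2 joined the members after the annotation was read. Read-through genes and RPS19BP1 were left out.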

Additional observations from a re-analysis of the deposited data

How the results depend on the processing

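Counting limits the comparison: a loop rests on few contacts, a loop missing from a list has no value there, and 2 libraries per treatment cannot bring an exact p under 0.333. Of 53 alternative values that kept all libraries, 34 kept their direction and size within the spread between replicates, or their count within 1.5 times. Without loops with 25 kb anchors, the log2 ratio of loop numbers was -0.69, the difference in the ratio of observed to donut -0.26, and the fall in small loops 5.41 percentage points (-5.41). That last difference was -5.77 with a window of 5 kb, -10.3 with 20 kb and -9.66 without paralogs. The difference in partner start sites was 1.54 with 5 kb, -0.36 with 20 kb, 0.45 when the partner anchor had to overlap the 5′ end and, chosen after seeing the data, 3.37 with the start of the canonical transcript. The value with 20 kb also counts a gene's own 5′ end where it lies near both anchors of a short loop. The share among start-site loops had a log2 ratio of 0.23 with 5 kb, and the sign turned to -0.026 without 25 kb anchors and -0.012 with all 4 FDR values at most 0.01. The cause of these moves was not tested.

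Of the 5 weaker loops by edgeR, 3 remained in number with the bottom-left expectation, 0 with TMM and no expectation, 0 with DESeq2, 2 with a window of 5 kb (4 loops tested), and 0 when any 1 library was left out (lowest 0, highest 0), in fits with 1 library in a group that kept a median change of -0.51 to -0.44 at the members' loops. With loops matched within 20 kb, chosen after seeing the data, the count was 0 of 66, and 2 with the replicate block added, where 251 of all 8375 loops were lower and 19 higher. The replicate block alone gave 5 of 14 and changed no call at the members' loops in number. Over all loops, 720 were lower, 604 with the bottom-left expectation, 17 with DESeq2, and 0 to 227 when 1 library was left out.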
